A study of Homo sapiens with 4 samples.

Results

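The genes described here are the 8 subunits of the m6A writer complex (METTL3, METTL14, WTAP, VIRMA, ZC3H13, CBLL1, RBM15 and RBM15B) together with METTL16, a separate m6A methyltransferase. They were chosen by gene name for their known function. Each of the 9 names matched 1 row among the 60544 genes of the deposited count table, and all 9 passed the filter on low counts, which left 16802 genes to test. The study sequenced poly(A) RNA from PC3, an established human prostate cancer cell line grown in RPMI-1640 medium with fetal bovine serum. Per the series design, METTL3 knockdown was compared with control. The control arm, labelled shNC, had 2 libraries, and the arm labelled sh812 had 2 libraries and was read as the knockdown because it is the other label. All 4 libraries come from the same line. The labels do not say whether the cells were clones or pools, give no second knockdown construct and do not say whether the replicates were separate cultures, so p-values measure only the spread between these libraries.

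N6-methyladenosine (m6A) is a methyl group placed on adenosines of messenger RNA, mostly within a short sequence context and often near stop codons. METTL3 is the catalytic subunit and uses S-adenosylmethionine as the methyl donor. METTL14 forms a stable heterodimer with METTL3 and helps bind the RNA. WTAP holds the heterodimer in nuclear speckles together with VIRMA, a large scaffold, ZC3H13, which keeps the complex in the nucleus, CBLL1 (also called HAKAI), a RING-type E3 ligase, and the RNA-binding paralogs RBM15 and RBM15B, which recruit the complex to transcripts. METTL16 acts outside this complex, on the U6 small nuclear RNA and on hairpins of the MAT2A transcript.

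Total gene counts per library ranged from 31450648 to 37041330. The epithelial markers KRT8, KRT18, KRT19, EPCAM and CDH1 were detected in each library, with a summed level of 816 and 921 CPM (counts scaled to a library of fixed size) in shNC and 956 and 1017 CPM in sh812. KLK2 and KLK3, which mark androgen-responsive prostate cells, had 0 counts in each library. Of the markers of other cell types, the 4 leukocyte genes summed to at most 1.11 CPM. The endothelial genes summed to 23.8 CPM in each shNC library and to 32.9 and 38.8 CPM in sh812. Nearly all of this came from PECAM1 (log2 fold change 0.59, adjusted p = 0.000222 in edgeR), with VWF and CDH5 at or near 0. The fibroblast genes summed to 41.3 and 44.7 CPM in shNC and to 31.6 and 36.4 CPM in sh812, mostly from COL1A1 (adjusted p = 0.0589 in edgeR), and COL3A1 fell from 2.93 and 3.95 CPM to 1.28 and 1.12 CPM (log2 fold change -1.51, adjusted p = 0.00131 in edgeR). The part of these marker levels in the results below was not tested. The shNC libraries differed from each other along transcript length. Between transcript length and the log2 difference of replicate 2 from replicate 1, the Spearman correlation was -0.32 across 12254 genes. The corresponding value for the sh812 pair was 0.042. These are correlations across genes, which are not independent replicates. Fits with each library's trend on transcript length removed are given below for genes of this complex. The cause of the trend was not tested.

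Among the writer genes, the METTL3 transcript fell and the other 8 transcripts did not pass the test. METTL3 was reduced to 18.7% of its control level. The fitted changes of the other 8 genes lay between -0.11 and 0.10 on the log2 scale. With each library's trend on transcript length removed, VIRMA alone among the 8 passed it, as given with its values.

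METTL3 (ENSG00000165819, chromosome 14, 21498133 to 21511375, minus strand, positions here and for the other genes from GENCODE 29 on GRCh38) had 1682 and 1379 counts in shNC replicates 1 and 2, and 269 and 313 counts in sh812 replicates 1 and 2. Scaled to library size, these were 44.3 and 43.6 CPM in shNC and 7.66 and 8.75 CPM in sh812. Both sh812 libraries lay far below both control libraries, at 17.4% and 19.9% of the control mean. The log2 fold change was -2.42 (SE 0.11, 95% interval -2.64 to -2.20, adjusted p = 5.54e-14 in edgeR, 2 libraries per group). Adjusted p-values are from the quasi-likelihood F-test in edgeR, adjusted by Benjamini and Hochberg's method over all genes tested. The interval corresponds to 0.160 to 0.217 of the control level. Among the 10839 genes with a mean of at least 5 CPM, METTL3 had the most negative fitted change. In the same fit 1822 of 16802 genes (10.8%) were called at an adjusted p under 0.05, 912 of them higher (5.43%) and 910 lower (5.42%) in sh812. That balance rests on the scaling, since library size alone in place of TMM gave 561 higher and 1328 lower.

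The exons of METTL3 share 388 bp with TOX4 on the opposite strand, 6.58% of its merged exon length. TOX4, which encodes an HMG-box protein, had 101 and 104 CPM in shNC and 105 and 100 CPM in sh812. The TOX4 libraries overlapped between groups, with a log2 fold change of -0.0019 (95% interval -0.14 to 0.13, adjusted p = 0.992 in edgeR). Whether the counting used strand is not given in the sources used here, so the share of remaining METTL3 reads that could belong to TOX4 was not tested.

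**Figure D1:**
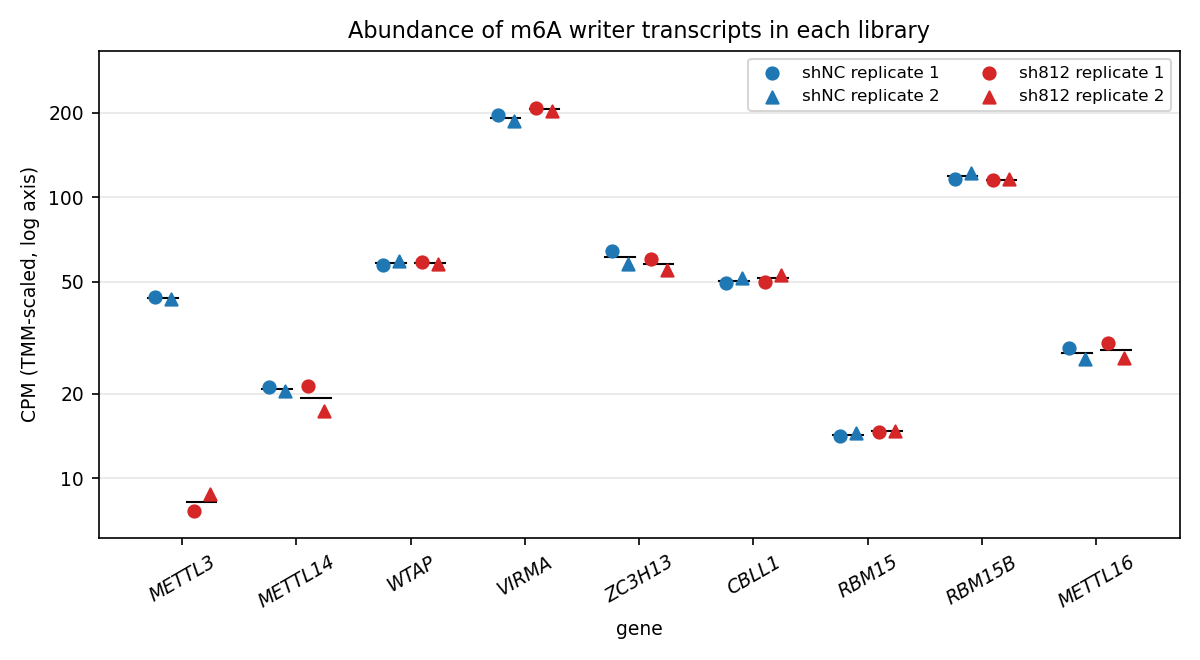
CPM of each of the 9 genes in each of the 4 libraries, on a log axis, with circles for replicate 1, triangles for replicate 2 and black bars for the mean of 2 libraries. METTL3 drops from 44.3 and 43.6 CPM in shNC to 7.66 and 8.75 CPM in sh812, while the points of the other genes stay close together.

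METTL14, the partner of METTL3 in the heterodimer, did not pass the test. METTL14 (ENSG00000145388, chromosome 4, 118685368 to 118715433, plus strand) had 801 and 646 counts in shNC and 745 and 620 in sh812, or 21.1 and 20.4 CPM against 21.2 and 17.3 CPM. Only sh812 replicate 2 was low, and the groups overlapped. The log2 fold change was -0.11 (SE 0.11, 95% interval -0.34 to 0.12, adjusted p = 0.61 in edgeR), so the interval runs from 0.790 to 1.09 of the control level. The value rests on single sh812 libraries, at -0.26 with replicate 1 of that arm left out and 0.029 with replicate 2 left out. With each library's trend on transcript length removed, the METTL14 log2 fold change was -0.025 (adjusted p = 0.926 in edgeR). Of the 9 genes METTL14 had the largest gap between sh812 replicates, a log2 difference of -0.29.

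The adaptor WTAP (ENSG00000146457, chromosome 6, 159725585 to 159756319, plus strand) had nearly the same level in all 4 libraries. It had 57.6 and 59.2 CPM in shNC and 58.7 and 58.0 CPM in sh812, means of 58.4 ± 1.10 and 58.4 ± 0.476 CPM (SD, n = 2). Both sh812 values fell inside the control range. The 95% interval of its log2 fold change ran from -0.15 to 0.15, or 0.901 to 1.11 of the control level. Its exons share 298 bp with SOD2, the mitochondrial superoxide dismutase gene, on the opposite strand. SOD2 had a log2 fold change of -0.079 (95% interval -0.21 to 0.054, adjusted p = 0.499 in edgeR).

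VIRMA (ENSG00000164944, chromosome 8, 94487693 to 94553529, minus strand) had 197 and 187 CPM in shNC and 208 and 204 CPM in sh812. Both sh812 libraries were above both control libraries, by a margin smaller than the gap between the control libraries. The log2 fold change was 0.10 (SE 0.06, 95% interval -0.023 to 0.22, adjusted p = 0.316 in edgeR). With each library's trend on transcript length removed, it was 0.18 (adjusted p = 0.0337 in edgeR), and 0.19 with the trends on length and GC content removed (adjusted p = 0.0258). Over all 15 alternatives the adjusted p ran from 0.0258 to 0.75. The longest annotated VIRMA transcript is 6528 bp.

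ZC3H13 (ENSG00000123200, chromosome 13, 45954465 to 46052759, minus strand) has the longest transcript of the set, 8018 bp. Its level was 64.2 and 58.2 CPM in shNC and 60.3 and 55.3 CPM in sh812, with replicate 2 the lower library in both groups and overlapping ranges. The log2 fold change was -0.083 (SE 0.08, 95% interval -0.24 to 0.076, adjusted p = 0.561 in edgeR). It came to 0.0080 with the length trend removed, so no direction was read from it.

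CBLL1 (ENSG00000105879, chromosome 7, 107743697 to 107761667, plus strand) had 49.7 and 51.4 CPM in shNC and 50.1 and 53.1 CPM in sh812. These ranges overlapped, and the log2 fold change was 0.029 (SE 0.08, 95% interval -0.13 to 0.19, adjusted p = 0.867 in edgeR). The noncoding gene AC002467.1 overlaps 333 bp of its exons on the opposite strand and had at most 2.29 CPM.

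The RNA-binding paralogs differed in level but neither passed the test. RBM15 (ENSG00000162775, chromosome 1, 110338506 to 110346681, plus strand) had 14.2 and 14.5 CPM in shNC and 14.6 and 14.8 CPM in sh812. The sh812 values were just above the controls, with a log2 fold change of 0.037 (SE 0.12, 95% interval -0.20 to 0.28, adjusted p = 0.893 in edgeR). RBM15B (ENSG00000259956, chromosome 3, 51391268 to 51397908, plus strand) had 117 and 123 CPM in shNC and 116 and 116 CPM in sh812. Its sh812 values were just below the controls, with a log2 fold change of -0.047 (SE 0.06, 95% interval -0.18 to 0.083, adjusted p = 0.712 in edgeR). RBM15B shares 1325 of its 6641 bp of exons with DCAF1 on the opposite strand. DCAF1, a substrate receptor of a CUL4 ubiquitin ligase, had 68.2 and 67.6 CPM in shNC and 65.5 and 62.7 CPM in sh812 (log2 fold change -0.083, adjusted p = 0.52 in edgeR). RBM15-AS1, which overlaps 175 bp of RBM15, had 19 and 9 counts in shNC and 32 and 21 in sh812, with a 95% interval of the log2 fold change from -0.29 to 2.11.

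METTL16 (ENSG00000127804, chromosome 17, 2405562 to 2511891, minus strand) had 29.2 and 26.6 CPM in shNC and 30.3 and 26.8 CPM in sh812. Replicate 1 was the higher library in both groups and the ranges overlapped. The log2 fold change was 0.033 (SE 0.10, 95% interval -0.17 to 0.23, adjusted p = 0.885 in edgeR). MAT2A, the METTL16 target that encodes the enzyme making S-adenosylmethionine, had 266 and 218 CPM in shNC and 243 and 249 CPM in sh812. The sh812 values fell between the control values, with a log2 fold change of 0.024 (adjusted p = 0.885 in edgeR). The control libraries decide that value, which was 0.17 (adjusted p = 0.0166) without shNC replicate 1 and -0.10 without shNC replicate 2.

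**Figure D2:**
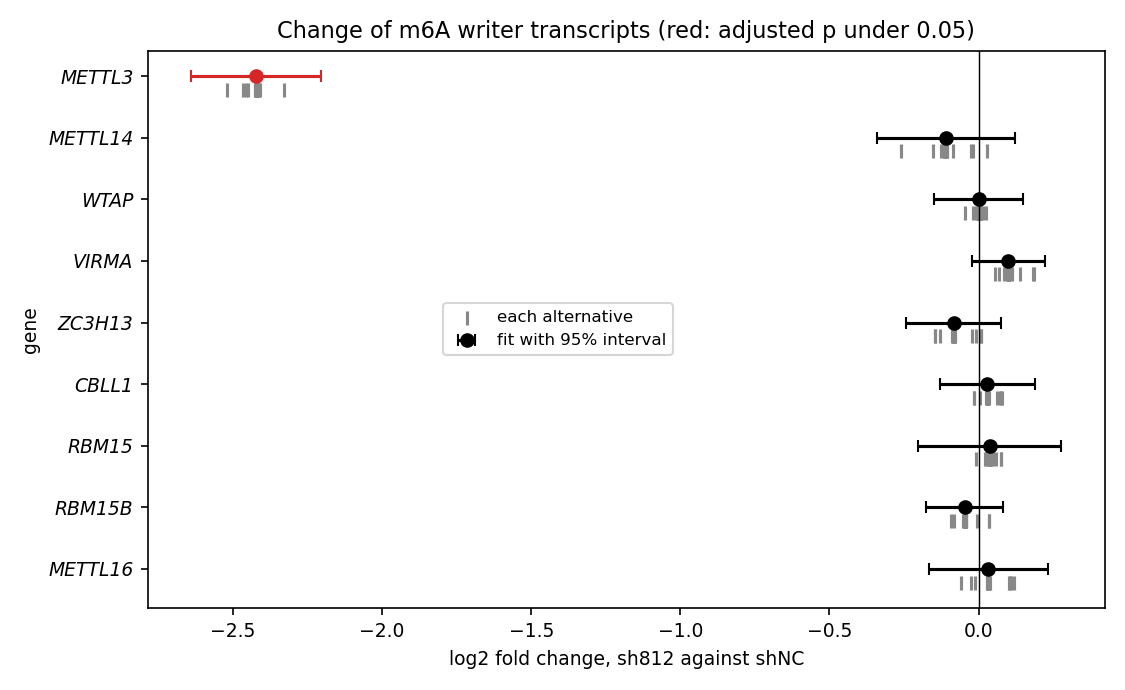
Log2 fold change of each gene in sh812 against shNC, with points for the fit, bars for its 95% interval and grey ticks for each alternative analysis. METTL3 stands at -2.42, and the intervals of the other 8 genes all include 0.

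As a set, the 8 genes other than METTL3 gave 0 calls with edgeR, with 0 at an unadjusted p under 0.05 and 0 calls with DESeq2 or limma-voom. Over all genes tested, 10.8% were called and 24.8% had an unadjusted p under 0.05. The smallest unadjusted p among the 8 was 0.107, for VIRMA. Fitted values were positive for 5 genes and negative for 3, with a median of 0.015 against -0.0056 over all genes tested. The signs rest on the scaling. With library size alone WTAP, CBLL1, RBM15 and METTL16 became negative, and with the length trend removed ZC3H13 and RBM15B became positive. The median absolute log2 fold change was 0.042 among the 8 and 0.17 over all genes tested. The median SE was 0.077 for the 8 and 0.12 over all genes tested, and its part in that gap was not tested. The 2 groups of libraries did not overlap for 3 of the 8 genes (VIRMA, RBM15 and RBM15B), or 37.5%, against 53.6% of all genes tested. That count rests on the scaling. In TPM, a length-scaled level without TMM given below, VIRMA and METTL16 overlapped. On that scale RBM15, RBM15B, METTL14, WTAP, CBLL1 and ZC3H13 lay below their controls in sh812. The 53.6% is for CPM with TMM, and the matching share of all genes in TPM is not given here. With library size alone, also without TMM, the median log2 fold change over all genes tested was -0.050. Whether these members were lower in TPM by more than genes in general was not tested. Across the 8 genes the 95% intervals reached no lower than 0.790 (METTL14) and no higher than 1.21 (RBM15) of the control level. They lay wholly above the METTL3 interval, whose upper bound is 0.217.

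**Figure D3:**
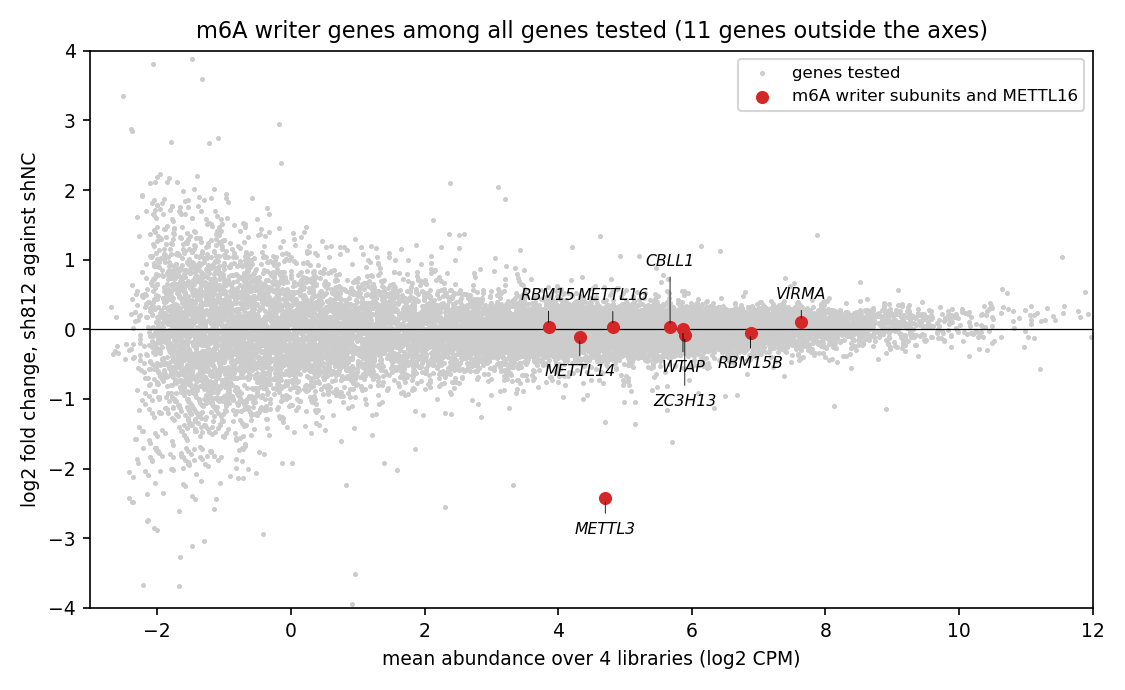
Log2 fold change against mean abundance (log2 CPM over 4 libraries) for the genes tested, in grey, with the 9 writer genes in red; 11 genes lie outside the axes. METTL3 lies at -2.42, and the other 8 red points lie within 0.11 of 0.

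Levels were compared between genes only per length, as TPM, a length-scaled abundance computed from the counts over merged exon length. In shNC the order was RBM15B at 71.3 ± 0.719 TPM, VIRMA at 70.8 ± 4.42, CBLL1 at 36.5 ± 0.00756, WTAP at 36.0 ± 0.209, METTL3 at 29.6 ± 1.08, ZC3H13 at 23.6 ± 2.24, METTL16 at 12.4 ± 1.13 and RBM15 at 12.1 ± 0.123 TPM (SD, n = 2). METTL14 came last, with 12.4 and 11.6 TPM in the 2 libraries. RBM15B and VIRMA overlapped in range, and so did METTL16, RBM15 and METTL14 as neighbours at the low end. CBLL1 and WTAP were apart by less than 1 TPM. The control level of METTL14 exceeded that of 48.3% of the genes tested that had a gene model, and that of RBM15B exceeded 83.6% of them. The 2 transcripts of the core heterodimer were unequal in control cells on this scale, with 2.44 and 2.49 METTL3 per METTL14.

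In sh812 METTL3 moved from place 5 to place 9, the lowest of the set, at 4.80 and 5.51 TPM. METTL14, next above it, had 11.4 and 9.37 TPM, so the ranges of METTL3 and METTL14 were apart. TPM used no TMM factor. Summed over the set without METTL3, it averaged 275 in shNC and 259 in sh812, so no fall of METTL14 was read from it. The ratio of METTL3 to METTL14 became 0.420 and 0.588, and that of METTL3 to WTAP went from 0.838 and 0.803 in shNC to 0.142 and 0.164 in sh812. These ratios rest on the lengths used. With the longest transcript as length, METTL3 to METTL14 was 5.55 and 5.64 in shNC and 0.954 and 1.33 in sh812, and METTL3 to WTAP was 1.12 and 1.07 in shNC and 0.189 and 0.218 in sh812. Both ratios were lower in sh812 with either length. RBM15B exceeded RBM15 in each library, by 5.80 and 5.96 times in shNC and 5.58 and 5.52 times in sh812.

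METTL3 made up 9.76% and 9.67% of the summed TPM of the 9 genes in shNC, and 1.81% and 2.10% in sh812. The difference of the means was -7.76 percentage points, far larger than the spread within either group. An exact two-sided permutation test over the 4 libraries gave p = 0.333, the smallest p that 2 against 2 libraries allow. The merged exons of METTL3 span 5894 bp and its longest transcript 2523 bp. With the longest transcript as length, the order in shNC began with VIRMA at 84.1, RBM15B at 51.4, METTL3 at 49.7, WTAP at 45.6 and CBLL1 at 32.5 TPM, and METTL14 was last at 8.89 TPM. On that scale METTL3 took place 8 in sh812, above METTL14 by the group means, and the difference in share was -12.4 percentage points.

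**Figure D4:**
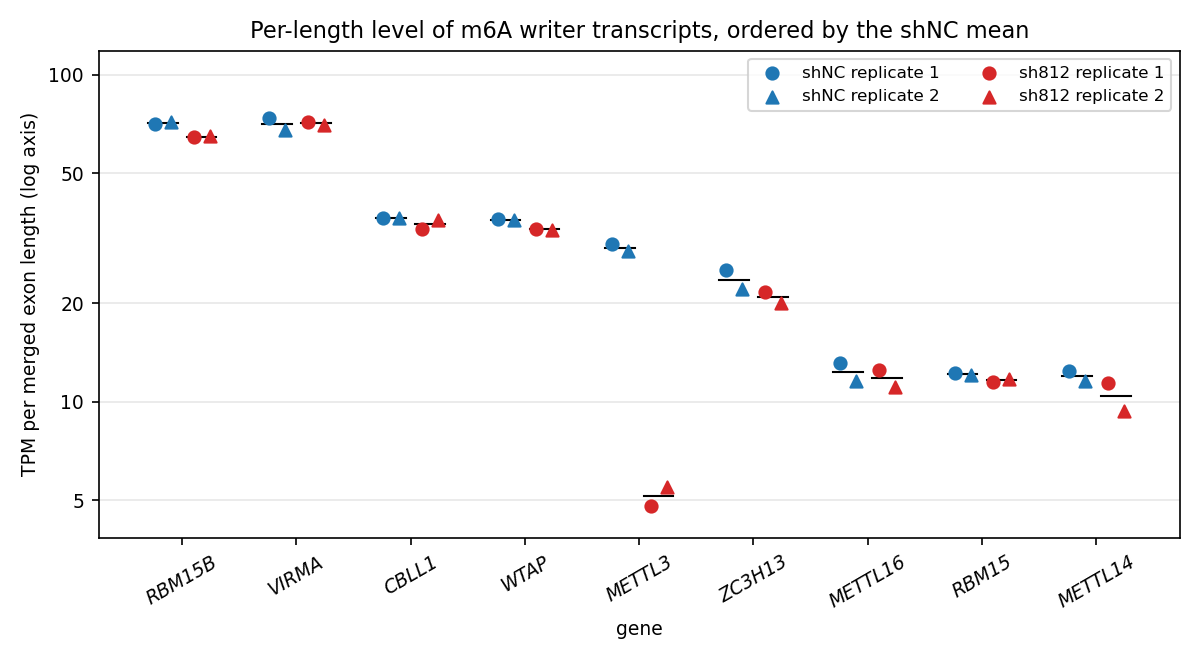
TPM per merged exon length of each gene in each library, on a log axis, ordered by the shNC mean, with circles for replicate 1, triangles for replicate 2 and black bars for means. METTL3 stands in the fifth place in shNC and below every other gene in sh812, at 4.80 and 5.51 TPM.

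The other genes of the m6A pathway were read from the same fit. Of 25 genes listed, 23 were tested, and 5 of these (21.7%) were called, 3 higher and 2 lower, against 10.8% of all genes. That count rests on the scaling (11.2% of all genes were called with library size alone) and on single libraries. It was 0 without sh812 replicate 1 (against 3.28% of all genes), 1 without sh812 replicate 2 (3.81%), 4 without shNC replicate 1 (10.4%) and 10 without shNC replicate 2 (18.1%), and it was 3 with library size alone. Their median log2 fold change was 0.031, with 13 positive and 10 negative values. MAT1A, the liver form of the methionine adenosyltransferase, and CBLL2, a CBLL1 paralog, had 0 counts in each library. The called changes were small beside that of METTL3, between -0.30 and 0.32 on the log2 scale.

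Neither eraser passed the test. FTO, an m6A demethylase, had a log2 fold change of 0.085 (adjusted p = 0.624 in edgeR), and ALKBH5, the nuclear demethylase, one of 0.18 (adjusted p = 0.072 in edgeR). Of the YTH-domain readers, which bind the methylated base, 0 of 5 were called by edgeR, against 10.8% of all genes. An unadjusted p under 0.05 was reached by 1 of them, against 24.8% of all genes. Their values ran from -0.19 (YTHDC2) to 0.12 (YTHDF2).

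Of the 7 other readers, 3 were called, 1 higher and 2 lower, against 10.8% of all genes. In each of the 7 the libraries of the 2 groups did not overlap, as in 53.6% of all genes tested, with 3 fitted values positive and 4 negative. HNRNPA2B1, a nuclear RNA-binding protein, rose from 1505 and 1370 CPM in shNC to 1857 and 1728 CPM in sh812 (log2 fold change 0.32, SE 0.06, adjusted p = 0.000814 in edgeR). IGF2BP2, which stabilises bound messages, fell from 116 and 108 to 97.2 and 90.3 CPM (log2 fold change -0.26, SE 0.07, adjusted p = 0.0144 in edgeR). FMR1, the fragile X protein gene, fell from 48.2 and 43.6 to 39.3 and 35.3 CPM (log2 fold change -0.30, SE 0.09, adjusted p = 0.0241 in edgeR). The libraries of each of these genes did not overlap between groups. Their calls were lost without single libraries. HNRNPA2B1 lost its call without sh812 replicate 1 (adjusted p = 0.0818), IGF2BP2 without sh812 replicate 1 or 2 (0.0702 and 0.289), and FMR1 without shNC replicate 1 (0.106) or sh812 replicate 1 or 2 (0.0553 and 0.327). FMR1 also lost it with the length trend removed, at a log2 fold change of -0.24 (adjusted p = 0.0574), and with the length and GC trends removed, at -0.24 (adjusted p = 0.0554). IGF2BP1, with 27 and 22 counts in shNC and 10 and 4 in sh812, passed the filter through its control libraries and was not called (adjusted p = 0.0811 in edgeR).

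Among other m6A methyltransferases and their cofactors, 1 of 5 was called, against 10.8% of all genes. TRMT112, the small activator that METTL5 and other methyltransferases need, rose from 150 and 161 CPM to 183 and 179 CPM (log2 fold change 0.22, SE 0.06, adjusted p = 0.0198 in edgeR). METTL5, which methylates 18S ribosomal RNA, had a log2 fold change of 0.12 (adjusted p = 0.329 in edgeR). Of the 3 tested genes of S-adenosylmethionine supply, AHCY, the hydrolase that clears the reaction product, rose from 303 and 335 to 373 and 362 CPM (log2 fold change 0.20, SE 0.06, adjusted p = 0.0299 in edgeR). With library size alone both lost their calls, at log2 fold changes of 0.18 for TRMT112 (adjusted p = 0.0527) and 0.16 for AHCY (0.0704). With the length trend removed TRMT112 had a log2 fold change of 0.12 (adjusted p = 0.169) and AHCY one of 0.17 (0.0547). With the length and GC trends removed TRMT112 had 0.13 (adjusted p = 0.14), and AHCY, at 0.17, was called (0.043). Without sh812 replicate 1 or 2 the adjusted p was 0.267 and 0.162 for TRMT112, and 0.34 and 0.181 for AHCY, which also lost its call without shNC replicate 1 (0.0633). SPEN, a paralog of RBM15 and RBM15B, had a log2 fold change of -0.025 (adjusted p = 0.898 in edgeR).

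**Figure D5:**
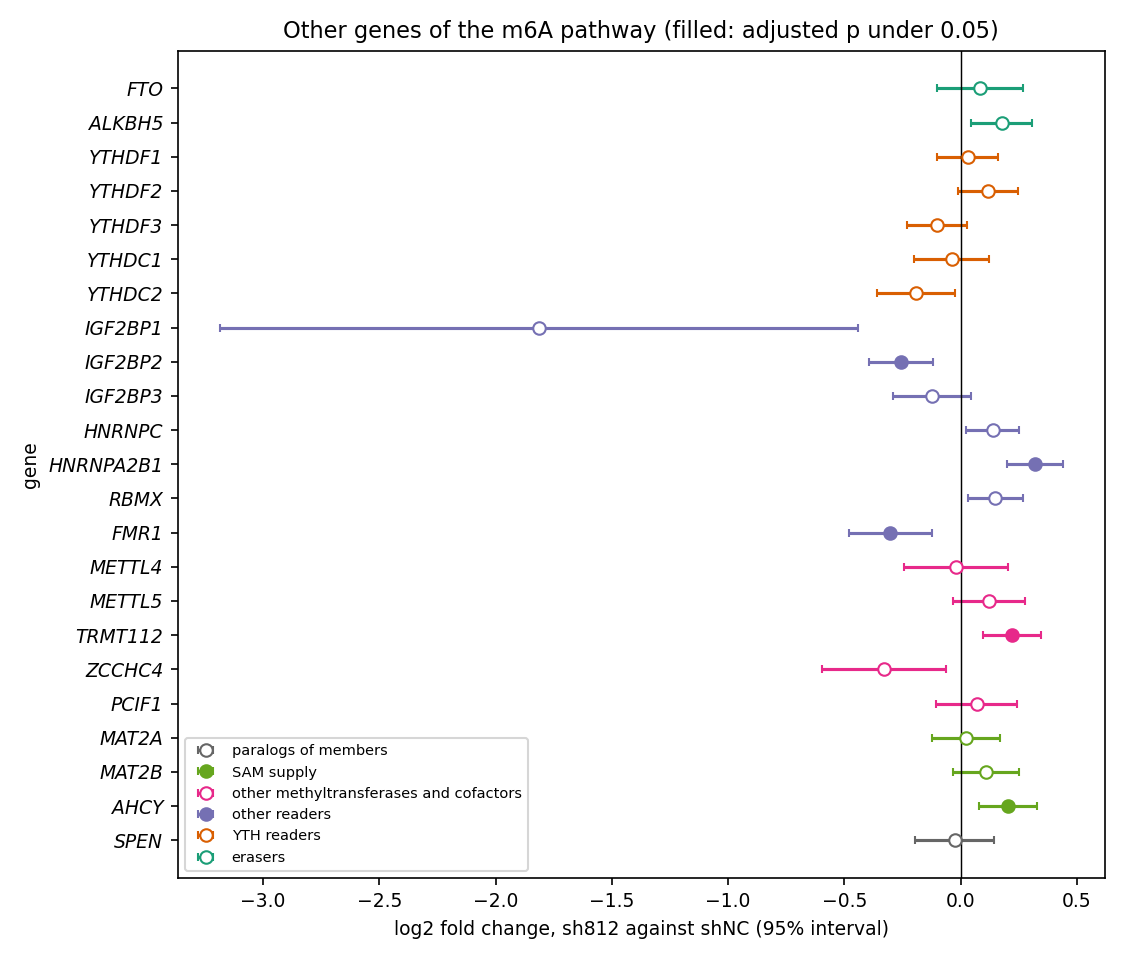
Log2 fold change with 95% interval for the 23 tested pathway genes outside the writer set, coloured by list and filled where the adjusted p is under 0.05. The filled points are HNRNPA2B1, TRMT112 and AHCY above 0 and IGF2BP2 and FMR1 below it, and the widest interval is that of IGF2BP1.

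Likeness to METTL3 was measured as the Euclidean distance between log2 CPM values, each centred on its gene's mean over the 4 libraries, among genes with a mean of at least 5 CPM. Of the nearest genes, TGFBI, an extracellular matrix protein, lay at a distance of 0.815, with 74.7 and 82.0 CPM in shNC and 24.4 and 26.9 CPM in sh812. IL6, a cytokine, lay at 1.11, with 50.8 and 50.8 CPM in shNC and 21.8 and 18.0 CPM in sh812. With 4 libraries in 2 groups, this likeness mainly ranks genes by the size of their fall.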

How the data were processed

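Poly(A) RNA libraries were made with dUTP strand marking and sequenced as paired reads, per the labels' protocols. The authors deposited raw counts per gene. The submitters' processing notes name fastp, STAR 2.7.1a, featureCounts, DESeq2 and hg38. The annotation release and the strand setting are not given in the sources used here.

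The test was edgeR 4.0.16 under R 4.3.3 (TMM factors after filterByExpr, glmQLFit and glmQLFTest on 4 libraries, Benjamini-Hochberg adjustment, threshold 0.05). Fitted fold changes used a prior count of 0.125. The SE and the 95% interval came from the quasi-likelihood F statistic. CPM used TMM-adjusted library sizes. TPM used merged exon lengths of GENCODE 29, which had a model for 16635 of the 16802 tested genes. GENCODE 29 also gave the positions and overlaps, and the authors' annotation may differ.

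Alternatives used RLE, upper quartile or no scaling factors, other filters (none, or a mean CPM of at least 1), DESeq2 1.42.0, limma-voom 3.58.1, a replicate block, a prior count of 2, removal of length or length and GC trends (lowess, span 0.3) and each library left out. On simulated counts of this comparison (16410 genes tested), 67 of 99 genes changed by log2 1 and 52 of 97 changed by log2 0.5 passed, and 6 unchanged genes were called.

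The members and lists were chosen with earlier results of these data known. Named genes are the writer genes, called pathway genes, MAT2A, exon-overlapping genes and the 3 genes nearest to METTL3. Other genes are named to describe a list, and 1 gene that the rule selects is not reported here. Replicates differed by more than sampling noise (chi-square per gene 8.43 in shNC, 4.51 in sh812, over genes with at least 20 counts).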

Additional observations from a re-analysis of the deposited data

How the results depend on the processing

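METTL3 kept its direction and its call in all 15 alternatives, with log2 fold changes from -2.52 to -2.33, which are also the extremes with a library left out. The count of called genes among the 8 other members was 1 with the length trend removed and 1 with the length and GC trends removed (VIRMA both times), and 0 in the 12 other alternatives, each library left out included. The count among the 23 other pathway genes, 5 as designed, was 3 with library size alone and ran from 0 without sh812 replicate 1 to 10 without shNC replicate 2. It was 1 without sh812 replicate 2. Over all genes 1822 were called. With a library left out the count ran from 587 (without sh812 replicate 1) to 3252 (without shNC replicate 2), with 682 without sh812 replicate 2. These fits assume that the lone library of a group varies like the others. The difference in METTL3 share was -12.4 percentage points with the longest transcript as length and -6.00045 on raw counts, and ran from -7.90 to -7.61 with a library left out. The median change over all genes was -0.050 (log2) with library size alone. The causes of these changes were not tested, apart from the share, whose lengths enter the value directly.

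Replicate numbers are shared between groups, but libraries of the same number deviated from their group means with a correlation of 0.016 across genes, so the numbers were not taken as pairs. With the replicate block METTL3 had a log2 fold change of -2.42, 0 of the 8 other members and 5 pathway genes were called, and 2001 genes were called in all. The block changed no call of the writer genes, the called pathway genes, MAT2A, the overlapping genes, TGFBI or IL6. With 2 libraries per group, changes of the size of the intervals given for each gene could be missed.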
